A study of Homo sapiens with 23 samples.

Results

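The comparison asked what changed in the RNA of *AGO1* knockout cells when *AGO2* was lost as well. The 3 RNAseq samples of *AGO1/2* knockout cells (genotype AGO1-/-, AGO2-/-) were set against the 3 samples of *AGO1* knockout cells (AGO1-/-), which are 6 of the 23 samples of the series, chosen by their labels alone. Both groups are derivatives of HCT116, a human colorectal cancer cell line, and neither group carries an intact *AGO1*, so that AGO2 was the difference by genotype. No wild-type sample entered the comparison. Of the other samples, 8 are eCLIP libraries (sequencing of RNA crosslinked to AGO2) that were not analysed here, and the *AGO2* and *AGO1/2/3* knockout samples are given as levels beside the results and, with the wild-type samples, enter only an alternative fit of all 15 RNAseq samples. Each genotype is represented by 1 CRISPR-edited line, so that the effect of *AGO2* loss and any other difference between the 2 lines cannot be told apart, and p-values describe the spread between the 3 replicates of a line. Whether the double knockout was made from the *AGO1* knockout line is not given in the sources used here.

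Argonaute (AGO) proteins are the carriers of small RNAs. A microRNA (miRNA) bound in an AGO protein pairs with its target mRNA mainly through its seed, and the complex recruits TNRC6 proteins, which bring deadenylation and decapping enzymes to the mRNA and repress it. AGO1 to AGO4 are closely related and can carry largely the same miRNAs, and AGO2 is the member with robust slicing activity. In textbook terms, targets of a miRNA rise when AGO function is lost, and genes further downstream can move in either direction.

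The 6 libraries held between 27709971 and 31465835 estimated counts, and no 2 of the 15 pairs among them were identical. Correlations of log2 CPM (counts scaled to the library's total) between libraries ran from 0.9838 to 0.9907 within a line and from 0.965 to 0.9728 between the lines. Mitochondrial genes took 8.52% to 10.24% of the counts and small RNA genes 7.17% to 9.62%, with overlapping ranges in the 2 lines. Of the 10 colon epithelial markers, none was at 3 counts or fewer in every library, and their summed level was 1450 to 1570 CPM in the *AGO1* line and 2190 to 2800 CPM in the *AGO1/2* line. The median log2 difference over the 9 members tested was -0.36, so that the sum and the median went in opposite directions. *KRT8*, *KRT18* and *KRT19* were called higher, and *EPCAM* and *CDX2* lower. The 7 leukocyte markers summed to 3.25 to 5.84 CPM and to 11.2 to 15.3 CPM, with CD3D and CD3E at 3 counts or fewer throughout and with LYZ and CD68 the 2 members of 3 tested that rose. The 7 fibroblast markers summed to 14.6 to 19.0 CPM and to 13.0 to 16.6 CPM, with LUM at 3 counts or fewer throughout, and COL3A1 fell as the only called member of 5 tested. The 6 endothelial markers stayed below 4 CPM in sum in every library, between 3.08 and 3.91 CPM in the *AGO1* line and between 2.51 and 3.49 CPM in the *AGO1/2* line, with CLDN5 at 3 counts or fewer throughout, and of 3 tested VWF rose and KDR fell, the former without a call by DESeq2. The part of these markers in the results was not tested. In bulk samples such as these, fewer cells with a transcript and less of it per cell cannot be told apart.

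The RNA of the targeted genes was examined first. *AGO2* RNA was at 9898, 10794 and 10364 normalised counts in the *AGO1* knockout samples and at 9415, 9779.9 and 10623 in the *AGO1/2* knockout samples (normalised counts are TMM-scaled to the mean library size). The 2 lines overlapped, and the log2 difference of -0.06 ± 0.10 (SE) did not pass the test (edgeR's quasi-likelihood test, adjusted p = 0.75). A CRISPR edit need not remove the transcript, so the RNA level of *AGO2* does not check the genotype. *AGO1* RNA was at 1018, 954 and 1167 in the *AGO1* knockout samples and 1042, 1115 and 1067 in the *AGO1/2* knockout samples, again without a difference that passed the test (adjusted p = 0.86). On the CPM scale *AGO1* was at 159, 153 and 157 in the *AGO2* knockout samples, which carry *AGO1*, and at 34.4, 32.3 and 39 in the *AGO1* knockout samples.

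Over all genes tested 10.1% were called higher, 7.59% lower, and 35.7% had replicates that did not overlap between the lines. None of the 7 Argonaute and TNRC6 genes was called by edgeR. At an unadjusted p under 0.05 there were 3 of them, and DESeq2 called 0 higher and 0 lower. *AGO3* was at 2646, 2336 and 2956 in the *AGO1* knockout samples and 3019, 3358 and 3484 in the *AGO1/2* knockout samples, and its replicates did not overlap (log2 difference 0.31 ± 0.12, adjusted p = 0.11). *AGO4* was at 506, 504 and 789 in the *AGO1* knockout samples and 644, 989 and 987 in the *AGO1/2* knockout samples (log2 difference 0.54 ± 0.22, adjusted p = 0.13), with overlap between the lines. The scaffold genes *TNRC6A*, *TNRC6B* and *TNRC6C* had log2 differences of 0.50 ± 0.17, 0.15 ± 0.13 and 0.23 ± 0.12, all without a call. Under 1 or more of the alternatives run, *TNRC6A*, *AGO3* and *AGO4* passed: *TNRC6A* with all 15 samples in the fit, with no filter on low counts, with the replicate block and without *AGO1* replicate 1, *AGO4* with the block and without *AGO1* replicate 3, and *AGO3* without *AGO1* replicate 3. Among 15 genes of miRNA processing and turnover only *XPO5*, which exports miRNA precursors from the nucleus, was called. This was near or below the shares over all genes. *XPO5* fell by 0.44 ± 0.12 on the log2 scale (edgeR, adjusted p = 0.032). Its call was lost without *AGO1* replicate 1 or 2 and without *AGO1/2* replicate 2 or 3. *DICER1*, which cuts those precursors, was at 4062, 3948 and 3389.6 in the *AGO1* knockout samples and 4965, 4804 and 4784 in the *AGO1/2* knockout samples, without overlap (adjusted p = 0.052), and was called by DESeq2 (adjusted p = 0.044). *DROSHA* and *TARBP2*, partners in the same pathway, had log2 differences of -0.13 ± 0.098 and 0.11 ± 0.15, and neither passed the test. The genes used as qPCR normalisers in the study, *HPRT1* and *SNRNP200*, were not called either (log2 differences -0.29 ± 0.17 and 0.04 ± 0.11).

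Of 21120 genes tested, 2142 rose and 1602 fell in the *AGO1/2* line at an adjusted p of 0.05 or less, which is 10.1% called higher and 7.59% called lower, or 17.7% in all. Among the called genes, 767 rose and 564 fell by at least 2-fold, and 65 rose and 81 fell by at least 8-fold. The median log2 difference over all tested genes was -0.01, and the replicates of the 2 lines did not overlap in 35.7% of the genes. Without *AGO1* replicate 2 the test called 1108 genes higher and 807 lower, and without *AGO1/2* replicate 2 it called 1162 and 824. Protein-coding genes made up 1938 of the higher and 1263 of the lower calls, and long non-coding RNA genes 133 and 212. Of 173 small nucleolar RNA genes 1 rose and 18 fell, and of 83 small nuclear RNA genes 10 fell and 0 rose. Many of these short RNAs are multicopy, so that their single estimates are uncertain.

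The 12 protein-coding genes with the largest rise outside 8q were led by genes that were close to silent in the *AGO1* line. *MYBPH*, a myosin binding protein of muscle, was at 1.8, 2.2 and 2.0 in the *AGO1* knockout samples and 231, 549.7 and 247 in the *AGO1/2* knockout samples. The samples of the 2 lines lay far apart, and the ratio of the summed counts was 172, with a 95% counting interval of 78.7 to 469 (the interval covers counting error only). *PRSS33*, a serine protease, went from 0.9, 0.0 and 1.0 to 78.0, 159.5 and 126 normalised counts, a ratio of 181, with a 95% counting interval of 49.7 to 1500. *EGF*, the epidermal growth factor precursor, was at 0.0, 1.1 and 3.0 in the *AGO1* knockout samples and 87.4, 86.4 and 68.7 in the *AGO1/2* knockout samples, a ratio of 61.4, with a 95% counting interval of 23.7 to 227. The 3 *AGO1* libraries together held 6, 2 and 4 raw counts of these genes. *SUSD2*, a sushi domain membrane protein, was at 81.1, 79.2 and 72.0 in the *AGO1* knockout samples and 1879, 1827 and 2316 in the *AGO1/2* knockout samples (log2 difference 4.69 ± 0.15, adjusted p = 8.5e-07). *DCLK1*, a doublecortin-like kinase known as a tuft cell marker of the gut, went from 68.2, 92.2 and 74.0 to 954, 1185 and 1471 (log2 difference 3.95 ± 0.20). *PRKAA2*, a catalytic subunit of the energy sensor AMPK, rose from 26.7, 15.2 and 25.6 to 315, 376 and 345 (log2 difference 3.92 ± 0.20). In all 3 of these genes the lowest *AGO1/2* sample stood more than 10 times above the highest *AGO1* sample. The remaining genes of this group were *TM4SF18*, a tetraspan membrane protein (4.93 ± 0.30), *FAT2*, an atypical cadherin (4.50 ± 0.36), *LYZ*, lysozyme (4.40 ± 0.43), *TENM3*, a teneurin (4.36 ± 0.26), *F10*, coagulation factor X (4.16 ± 0.47), and *HBA2*, a haemoglobin alpha gene (5.33 ± 0.62, all log2 differences ± SE). *HBA2* shares nearly all of its sequence with *HBA1*, so that its estimated counts of 60.2, 163 and 114 in the *AGO1/2* samples are uncertain between the 2 genes.

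Among the largest falls, some genes were lost almost entirely. *ANXA10*, a gastric annexin, was at 1383, 1856 and 1295 in the *AGO1* knockout samples and 1.9, 1.0 and 3.2 in the *AGO1/2* knockout samples. The ratio of *AGO1* to *AGO1/2* counts was 744, with a 95% counting interval of 341 to 2030. *TMEM200A*, a transmembrane protein gene, fell from 3769.8, 3657 and 3614 to 50.8, 58.9 and 47.2, or by 6.13 ± 0.13 on the log2 scale (adjusted p = 1.7e-07). Its neighbour *SAMD3* fell too, from 827, 726 and 788 to 22.6, 30.5 and 25.8. *ANK3*, ankyrin G, an adaptor between the membrane and the spectrin skeleton, fell from 744, 862 and 874 to 32.9, 31.5 and 22.5. *RHOBTB1*, an atypical GTPase gene 135.9 kb from *ANK3*, was at 99.5, 98.7 and 97.7 in the *AGO1* knockout samples and 3.8, 1.0 and 0.0 in the *AGO1/2* knockout samples. *SLC1A3*, a glutamate and aspartate transporter, fell from 346, 257 and 265 to 8.5, 8.1 and 3.2 and *GRB14*, an adaptor of the insulin receptor, from 149, 177 and 182 to 7.5, 1.0 and 4.3. All of these genes were separated between the lines in every sample. *SPATA18*, a p53-induced gene of mitochondrial quality control, was at 61.7, 56.4 and 58.2 in the *AGO1* knockout samples and 0.0, 0.0 and 1.1 in the *AGO1/2* knockout samples, which gives a ratio of 176, with a 95% counting interval of 31.1 to 6970. *LRP1B*, a large lipoprotein receptor, was at 39.6, 101 and 112 in the *AGO1* knockout samples and 0.9, 1.0 and 0.0 in the *AGO1/2* knockout samples, *PODXL2*, a sialomucin, at 47.0, 52.1 and 86.8 in the *AGO1* knockout samples and 0.9, 0.0 and 2.1 in the *AGO1/2* knockout samples, and *HMCN1*, hemicentin, at 141, 107 and 169.7 in the *AGO1* knockout samples and 1.9, 3.0 and 3.2 in the *AGO1/2* knockout samples. Their ratios of *AGO1* to *AGO1/2* counts were 122.8, with a 95% counting interval of 33.6 to 1020; 61.5, with a 95% counting interval of 20.7 to 301; and 52.3, with a 95% counting interval of 26.3 to 122. *RCAN2*, a regulator of calcineurin, fell by 5.01 ± 0.56 on the log2 scale.

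**Figure D1:**
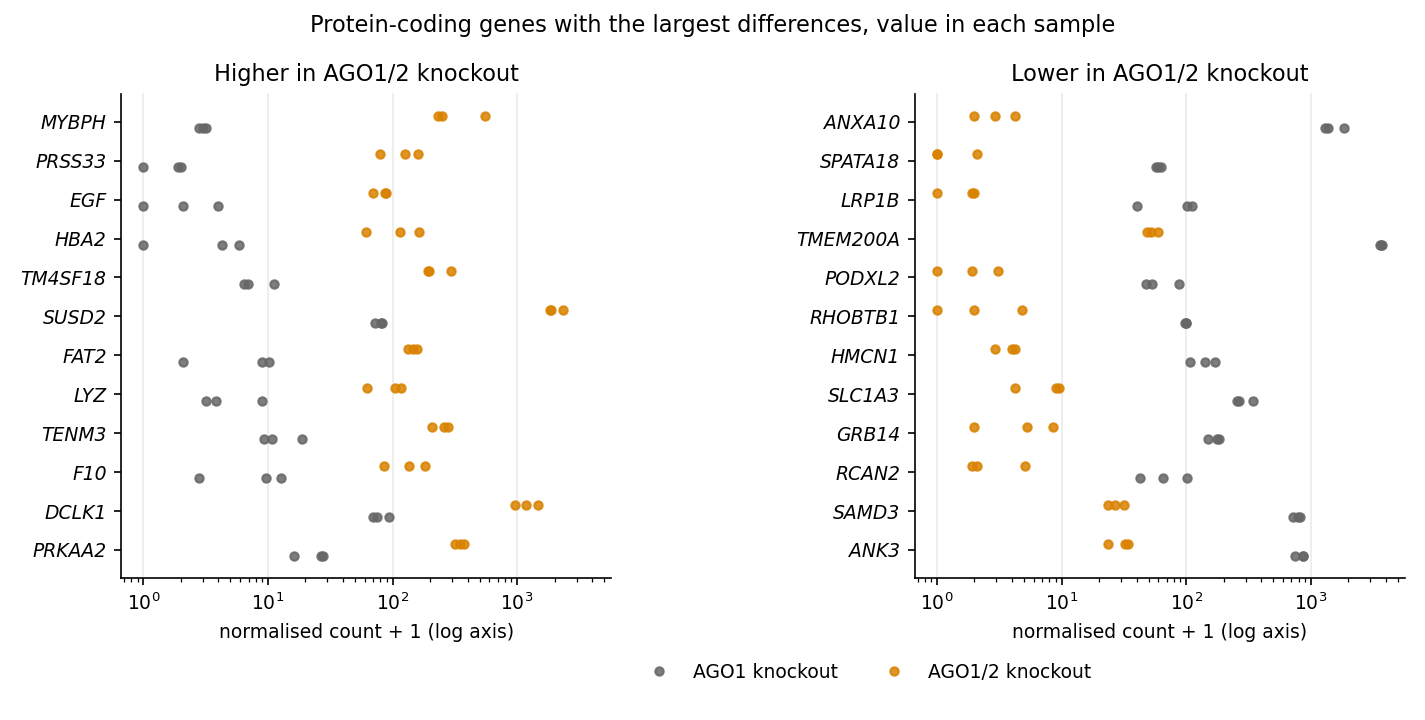
Normalised counts plus 1 (log axis) in each of the 6 samples for the 12 protein-coding genes outside chromosome arm 8q with the largest rise (left) and the 12 with the largest fall (right), grey for the *AGO1* line and orange for the *AGO1/2* line. Each dot is 1 replicate, and in no gene do the 2 lines overlap, which the choice of the genes required.

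The levels of these genes in the other knockout lines did not follow one pattern. *ANXA10*, for which the *AGO1* line was the high one, was at 46.8, 62.7 and 43.2 CPM in the *AGO1* samples, at 0.0443, 0.0224 and 0.0494 CPM in the *AGO2* samples and at 0.0497, 0 and 0 CPM in the *AGO1/2/3* samples. *TMEM200A* was at 11.2, 13.9 and 12.6 CPM in the *AGO2* samples against 127, 124 and 121 CPM in the *AGO1* samples. It was at 14.9, 12.5 and 11.4 CPM in the *AGO1/2/3* samples, so that for these 2 genes each of the 3 lines without intact *AGO2* lay below the *AGO1* line. *SLC1A3* was different, at 23.2, 34 and 35.6 CPM in the *AGO2* samples, above the 11.7, 8.69 and 8.86 CPM of the *AGO1* samples, and at 1.27, 1.63 and 2.42 CPM in the *AGO1/2/3* samples. *DCLK1* was at 0.222, 0.202 and 0.148 CPM with *AGO2* alone lost and at 304, 322 and 373 CPM in the *AGO1/2/3* line, against 32.2, 39.7 and 49.2 CPM in the *AGO1/2* line. Among genes averaging 1 CPM or more, 12% were called higher and 8.84% lower. Over these 1941 higher genes the *AGO2* line lay nearer to the *AGO1* line for 1185 (61.1%) and nearer to the *AGO1/2* line for 756, while the *AGO1/2/3* line lay nearer to the *AGO1/2* line for 1659 (85.5%). Over the 1428 lower genes the *AGO2* line lay nearer to the *AGO1* line for 844 (59.1%), and the *AGO1/2/3* line nearer to the *AGO1/2* line for 1196 (83.8%). These are counts of mean log2 levels with no test, and the genes were chosen for a difference between the *AGO1* and *AGO1/2* samples.

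Chromosome arm 8q carries *AGO2* itself, and its distal genes were lower in the *AGO1/2* line. The 359 genes of the arm (start past 45 Mb on chromosome 8, averaging 1 CPM or more) had a median log2 difference of -0.54, and 189 of them (52.6%) were called lower and 9 higher. Among the 15789 genes of this abundance outside the arm the median was 0.00, with 7.85% called lower, 12.2% called higher and 20.1% called in either direction. The median over the 8q genes of the difference from the *AGO1* mean ran from -0.53 to -0.51 in the 3 *AGO1/2* samples. The fall was not spread over the whole arm. From 45 to 73 Mb, 61 genes had a median of -0.09, with 4 called lower and 5 higher, whereas from 73 Mb to the end of the arm (a limit set after the values were seen) 298 genes had a median of -0.61, a ratio of 0.655. Of these distal genes 271 (90.9%) lay below 0, 185 (62.1%) were called lower and 4 higher. *TRAM1* at 70.6 Mb, a translocon component, rose by 0.45 ± 0.10 on the log2 scale and was the last called gene before the change. Its call was lost without *AGO1* replicate 1 or 2 and without *AGO1/2* replicate 2 or 3. *TERF1*, which starts at 73008856 and binds telomeric repeats, fell by 0.45 ± 0.12. The call of *TERF1* was lost on leaving out any 1 library other than *AGO1* replicate 3. *RPL7*, the next called gene, a ribosomal protein of the large subunit with many pseudogenes, fell from 43096, 47053 and 45714 to 18192, 18734 and 21172 normalised counts. From there the medians of 10-Mb bins stayed between -0.88 and -0.51 until the end of the arm, where -0.88 comes from a bin of only 14 genes, with -0.50 in the bin that holds the change. Among the 278 other bins of the genome with at least 15 genes the medians ran from -0.47 to 0.24, and 2 of them lay below -0.3. On the short arm 8p the median over 196 genes was 0.10, with 10 called lower and 34 higher.

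**Figure D2:**
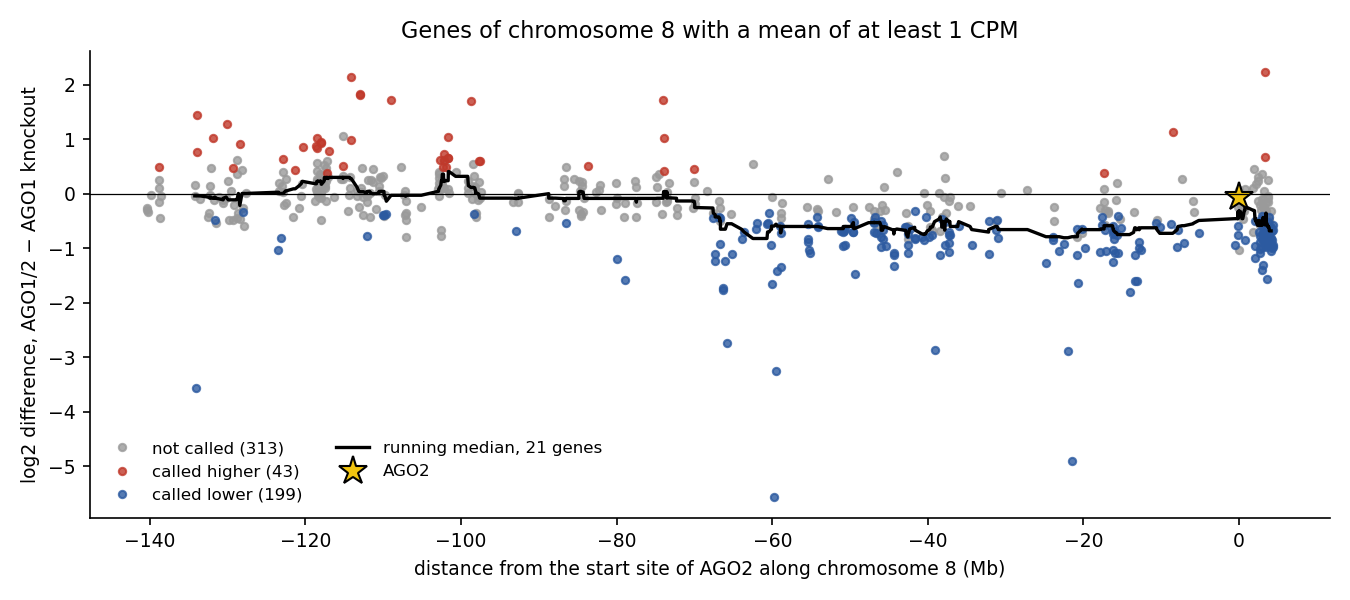
Log2 difference between the *AGO1/2* and *AGO1* lines for the 555 genes of chromosome 8 averaging 1 CPM or more, by distance of the gene's start site from that of *AGO2* in Mb, with called genes in red and blue and a running median over 21 genes. The running median lies near 0 over the far part of the chromosome and below 0 over the part that holds *AGO2*, and *AGO2* (star) at -0.06 lies above it.

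*AGO2* itself had a log2 difference of -0.06, compared with the median of -0.61 over the distal genes. Of the 12 other genes averaging 1 CPM or more that start within 1 Mb of it, a window set after the values were seen, 4 were called lower and 0 higher, 2 had values above that of *AGO2*, and the median was -0.38. The called genes were *CHRAC1*, a chromatin accessibility subunit, at -0.59, *TRAPPC9*, a subunit of a trafficking complex, at -0.76, *PEG13*, an imprinted non-coding RNA gene, at -0.93, and *PTP4A3*, a phosphatase, at -0.86, while *PTK2*, focal adhesion kinase, was not called at -0.30. Some 8q genes fell far more than the arm. *ZNF704*, a zinc finger gene, fell from 1248, 1163 and 1273 to 22.6, 25.4 and 30.1 (log2 fall 5.56 ± 0.15), and *PAG1*, an adaptor of Src family signalling that lies 93.0 kb away, fell from 211, 160.5 and 201 to 18.8, 21.3 and 19.3. *MAL2*, a transcytosis protein of epithelial cells, fell from 1757, 2269 and 1794 to 62.1, 58.9 and 74.1 (log2 fall 4.90 ± 0.16, adjusted p = 1.3e-06). *GRHL2*, a grainyhead transcription factor that maintains epithelial junctions, fell from 431, 404 and 459 to 60.2, 53.9 and 63.3. All 4 genes were lower in every *AGO1/2* sample than in any *AGO1* sample. *SAMD12* (log2 fall 2.89 ± 0.14), *PI15*, a peptidase inhibitor (2.74 ± 0.40), *LRATD2* (1.81 ± 0.33) and *JPH1*, junctophilin (1.77 ± 0.14), completed the 8 largest falls. The largest rises on the arm were *PARP10*, a mono-ADP-ribosyltransferase known as interferon-responsive, from 14.7, 11.9 and 18.7 to 79.0, 92.5 and 44, *MYBL1*, a MYB family factor, from 621, 414 and 356 to 1641, 1344 and 1621, and *HHLA1*, from 394, 501 and 606 to 833, 1133 and 1324. *MYC*, the proto-oncogene in the distal part, fell from 8819, 9219 and 9158 to 3997, 4677 and 4949 normalised counts, or by 1.0 ± 0.11 on the log2 scale (adjusted p = 0.00058). This was more than the median of its region.

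The distal 8q genes were low in both lines that lack AGO1 and AGO2. Their median log2(CPM + 1) was 4.37, 4.36 and 4.36 in the *AGO1* samples and 4.35, 4.42 and 4.40 in the *AGO2* samples. It was 3.73, 3.61 and 3.62 in the *AGO1/2* samples and 3.74, 3.61 and 3.67 in the *AGO1/2/3* samples, so that the *AGO2* line sat with the *AGO1* line and the *AGO1/2/3* line with the *AGO1/2* line. The share of counts from these genes was 2.28% to 2.34% in the *AGO1* samples and 1.51% to 1.53% in the *AGO1/2* samples. DNA copy number was not measured in these data. Genes of this region are marked as 8q where they are named.

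Interferon-stimulated genes rose in the *AGO1/2* line. They encode antiviral effectors and RNA sensors and are normally switched on by interferon through the interferon-stimulated response element (ISRE) of their promoters. Of 33 members tested 23 were called higher and 1 lower, with a median log2 difference of 1.14, against 10.1% higher, 7.59% lower and a median of -0.01 over all genes. *IFI6*, an antiviral protein of the endoplasmic reticulum, was at 133, 146 and 159.8 in the *AGO1* knockout samples and 1979, 1808 and 457 in the *AGO1/2* knockout samples (log2 difference 3.27 ± 0.48, adjusted p = 0.0022). *IFIT1*, which binds RNA lacking a self cap, was at 105, 91.1 and 71.0 in the *AGO1* knockout samples and 1312, 916 and 268 in the *AGO1/2* knockout samples (log2 difference 3.22 ± 0.51). *OAS1*, an oligoadenylate synthetase that activates RNase L, was at 9.2, 21.7 and 19.7 in the *AGO1* knockout samples and 201, 229.6 and 39.7 in the *AGO1/2* knockout samples (log2 difference 3.23 ± 0.63). In each of these genes *AGO1/2* replicate 3 was well below replicates 1 and 2 and still above all *AGO1* samples. *IFI27*, from 40.5, 48.8 and 58.2 to 407, 559 and 112, and *BST2*, tetherin, which holds virions at the cell surface, from 12.0, 14.1 and 31.6 to 113, 203 and 89.1, also showed wide spread in the *AGO1/2* line. The RNA sensors *RIGI*, *IFIH1* and *DHX58* and the factors *IRF7* and *IRF9* were among the called members, and *DDX60L*, a helicase related to DDX60, was the 1 member that fell. The median level over the list was 2.46, 2.85 and 3.03 on the log2(CPM + 1) scale in the *AGO1* samples and 4.33, 4.54 and 3.63 in the *AGO1/2* samples. In the other lines it was 2.90, 2.55 and 2.71 in the *AGO2* samples and 3.51, 3.54 and 3.56 in the *AGO1/2/3* samples, so that the *AGO1/2* line was the highest of the 4 and the *AGO2* line overlapped the *AGO1* line. Leaving out *AGO1/2* replicate 1, *AGO1/2* replicate 2 or *AGO1* replicate 2 reduced the called members to 15, 14 and 14.

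The ISRE can be read in the promoters of these genes, shown here because it is the element known to drive the group. RefSeq promoter windows of build GRCh38.p14, from 250 bases before to 50 bases after each start site, were searched on both strands for a pair of GAAA half-sites with any 2 bases between them. One match each, with 8 bases on either side, is printed for 4 members that rose and 2 that did not, chosen after the values were seen. The match is in capitals and reads 5′ to 3′ on the strand of the gene, with TTTC half-sites where it lies on the opposite strand.
IFI6 (chr1:27672290-27672315, minus strand): agagagggGAAAATGAAActgcagag
IFIT1 (chr10:89392512-89392537, plus strand): ctttccccTTTCGGTTTCcctaggtt
BST2 (chr19:17405743-17405768, minus strand): ctttctggGAAACTGAAActgaaaac
MX1 (chr21:41420561-41420586, plus strand): gcagaaatGAAACCGAAActgaattg
ISG20 (chr15:88638939-88638964, plus strand): acaaactaGAAACTGAAAcagggtcg
DDX60L (chr4:168480525-168480550, minus strand): ggagaaaaGAAACCGAAActaactcc
The first 4 genes rose, among them *MX1*, an antiviral GTPase, whereas *ISG20*, an exonuclease, was not called (log2 difference -0.18 ± 0.25) and *DDX60L* fell by 0.61 ± 0.14 on the log2 scale. In *BST2* a second match overlaps the one shown. The match lay in 3.57% of all 35116 windows, and 503 of the 12775 tested genes with a window held it (3.94%). Among the interferon list it was found in 14 of 18 members called higher and in 5 of 8 members not called higher. Over all genes called higher the share was 5.23% and over those called lower 4.87%.

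Genes of cholesterol supply were called higher in part. The sterol-sensing factor SREBP2 drives them when cell cholesterol is low. Of 25 members 9 were called higher and none lower, against 10.1% called higher and 7.59% lower over all genes. The median log2 difference was 0.62, and 1 member, *SQLE*, lies on 8q and was not called. *INSIG1*, the feedback protein that holds SREBP in the endoplasmic reticulum, went from 938, 468 and 529.8 to 3518, 3156 and 1125 (log2 difference 2.01 ± 0.42). The replicates of the lines did not overlap, and *AGO1/2* replicate 3 was again the lowest of its line. *INSIG1* was not called without *AGO1/2* replicate 2 or without *AGO1* replicate 2. *LSS*, lanosterol synthase, rose by 1.30 ± 0.19 on the log2 scale. The called members numbered 4 without *AGO1* replicate 2, 5 without *AGO1/2* replicate 2 and 14 without *AGO1* replicate 1. Fatty acid synthesis genes moved in the same direction, with 8 of 18 called higher and 1 lower. *SCD*, the stearoyl-CoA desaturase, was at 38186, 29721 and 32111 in the *AGO1* knockout samples and 72255, 125208 and 86994 in the *AGO1/2* knockout samples, *ACSL3* rose by 1.06 ± 0.16, *FASN*, fatty acid synthase, by 0.94 ± 0.21 and *SREBF1*, their transcription factor, by 0.79 ± 0.10 on the log2 scale, whereas *ACSL5* fell by 1.38 ± 0.29. The median level of the cholesterol genes was 6.02, 6.01 and 5.64 on the log2(CPM + 1) scale in the *AGO2* samples and 6.57, 6.83 and 7.07 in the *AGO1/2/3* samples, against 5.38, 4.86 and 5.03 in the *AGO1* and 6.26, 6.32 and 5.40 in the *AGO1/2* samples.

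**Figure D3:**
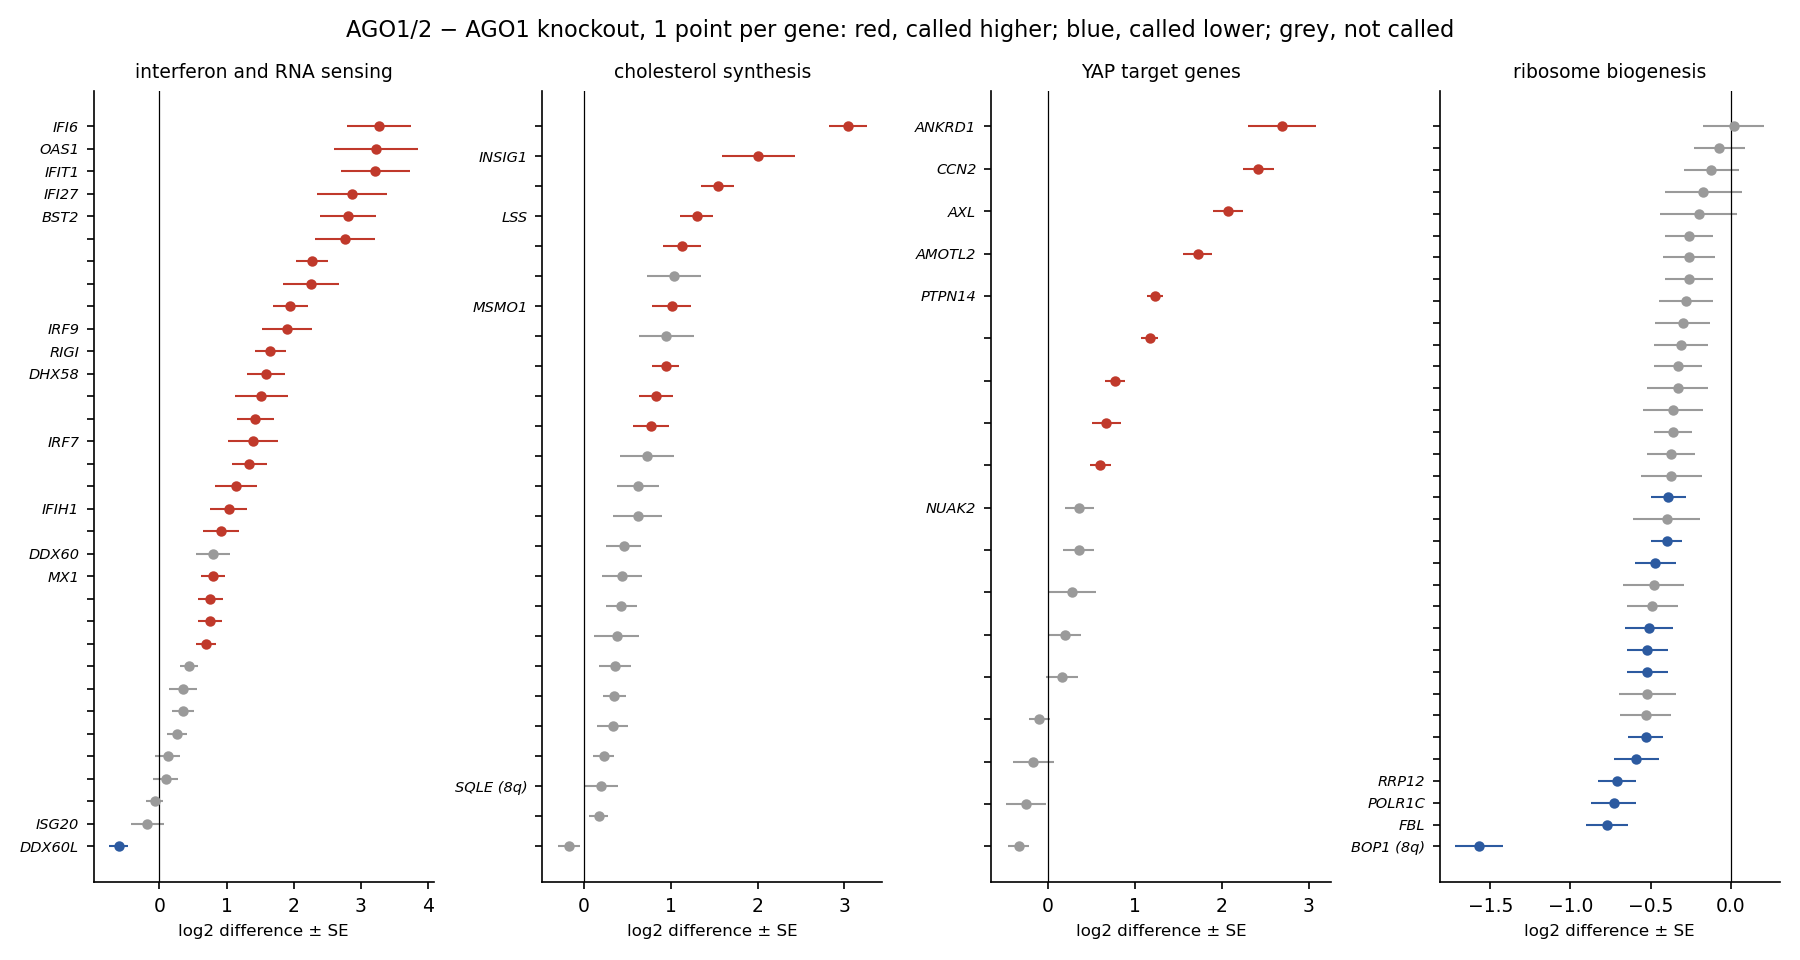
Log2 difference ± SE (edgeR) between the *AGO1/2* and *AGO1* lines for the tested members of 4 gene lists, 1 point each and ordered by the difference, with names for those described in the text, red where called higher, blue where called lower and grey where not called, with 8q marked beside the named genes that lie there. Of the members, 23 of 33 interferon genes, 9 of 25 cholesterol genes and 9 of 18 YAP target genes were higher and 12 of 34 ribosome biogenesis genes were lower.

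Among the YAP target genes the calls were in 1 direction. YAP and TAZ are the coactivators at the end of the Hippo pathway and act through TEAD factors on genes of growth and adhesion. Of 18 members 9 were called higher and none lower (median 0.48). Here too the lists were read against 10.1% called higher and 7.59% called lower over all genes. *CCN2*, connective tissue growth factor, was at 53.4, 55.3 and 56.2 in the *AGO1* knockout samples and 256, 268 and 362 in the *AGO1/2* knockout samples (log2 difference 2.42 ± 0.18, adjusted p = 6.2e-05). *ANKRD1*, an ankyrin repeat cofactor and a standard YAP readout, was at 7.4, 5.4 and 5.9 in the *AGO1* knockout samples and 23.5, 50.8 and 50.5 in the *AGO1/2* knockout samples (log2 difference 2.69 ± 0.39). *AXL*, a receptor tyrosine kinase, went from 1088, 1637 and 1659 to 6385, 5535 and 6454. Every *AGO1/2* sample was above every *AGO1* sample in these 3 genes, and leaving out any 1 library gave between 7 and 9 members called higher. With all 15 samples in the fit, and with the replicate block, 1 member was called lower. *AMOTL2*, an angiomotin family inhibitor of YAP, rose by 1.72 ± 0.17 and *PTPN14*, another inhibitor, by 1.23 ± 0.097 on the log2 scale. TEAD factors are known to bind GGAATG, and the promoter windows were searched for these letters on both strands because *CCN2* is the classical case.
CCN2 (chr6:131951454-131951475, minus strand): gaatgcgaGGAATGtccctgtt
CCN2 (chr6:131951528-131951549, minus strand): cagacggaGGAATGctgagtgt
ANKRD1 (chr10:90921202-90921223, minus strand): ctgagtctGGAATGaaaattca
PTPN14 (chr1:214551789-214551810, minus strand): ccgggccgCATTCCtccccgcc
NUAK2 (chr1:205321750-205321771, minus strand): aacaacttGGAATGctgtgctt
The capitals mark the match, which in *PTPN14* is on the opposite strand and reads CATTCC. *CCN2* holds a further match that overlaps the window of its first line, and *CCN2*, *ANKRD1* and *PTPN14* rose whereas *NUAK2*, a kinase, was not called. The match is short and was in 14% of all windows and in 15.1% of tested genes. It lay in 6 of 7 called and 2 of 5 uncalled list members with a window, and in 18.9% of all genes called higher and 16.1% of those called lower.

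Both epithelial and mesenchymal lists held genes that rose and genes that fell, against 10.1% called higher and 7.59% lower over all genes. Of 16 mesenchymal genes 7 were called higher and 3 lower (median 0.63). *S100A4*, a calcium-binding protein of motile cells, was at 437, 436 and 612 in the *AGO1* knockout samples and 3971, 5703 and 6520.0 in the *AGO1/2* knockout samples (log2 difference 3.45 ± 0.22), *SPARC*, a matricellular protein, went from 13.8, 35.8 and 25.6 to 109, 364 and 447, and *VIM*, vimentin, from 265, 300.4 and 151 to 723, 635 and 750.5. All 3 were separated between the lines in every sample. *COL3A1*, a fibrillar collagen with 6 raw counts over the 3 *AGO1/2* libraries, was among the members that fell, with a ratio of *AGO1* to *AGO1/2* counts of 8.88, with a 95% counting interval of 3.82 to 25.2. Of 32 junction and polarity genes 4 were called higher and 6 lower (median 0.00), and *GRHL2* and *ESRP1*, an epithelial splicing regulator, 2 of those 6, lie on 8q. *PKP3*, plakophilin 3, fell from 934, 1085 and 1255 to 437, 454 and 421 and *CLDN7*, a tight junction claudin, from 1179, 2348 and 2322 to 791, 958 and 1205, the latter with overlap between the lines, whereas *EHF*, an epithelial ETS factor, rose from 80.2, 74.8 and 76.0 to 491, 688 and 648 (log2 difference 2.98 ± 0.16) and *DSC2*, a desmosomal cadherin, by 1.22 ± 0.15 on the log2 scale. Among keratins of colorectal epithelium 5 of 7 were called higher and none lower (median 1.03), with *KRT8* (log2 difference 1.09 ± 0.13), *KRT18* (0.68 ± 0.11) and *KRT19* (1.03 ± 0.15) among them and *KRT80* at 41.5, 69.4 and 121 in the *AGO1* knockout samples and 269, 304 and 397 in the *AGO1/2* knockout samples. *KRT8* and *KRT18* have many processed pseudogenes, which can take a part of their reads. *EPCAM*, the epithelial surface marker, fell by 0.60 ± 0.12, and among the 9 colon epithelial markers tested 3 were called higher and 2 lower. Of 5 intestinal lineage genes 1 was called higher and 3 lower. Among them, *CDX2*, a caudal homeobox factor of the intestine, fell by 0.42 ± 0.11 and *HNF4G* (8q) by 1.12 ± 0.15 on the log2 scale, and *HNF4A* rose by 0.60 ± 0.13. *CDX2* was not called by DESeq2 (adjusted p = 0.053), with all 15 samples in the fit, with no filter on low counts or on leaving out any 1 library other than *AGO1* replicate 3. Without *AGO1* replicate 3 the junction genes had 7 called higher and 5 lower, and without *AGO1/2* replicate 2 they had 2 and 3. The call of *CLDN7* was lost without *AGO1* replicate 2 or 3 and without *AGO1/2* replicate 1 or 2.

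Growth factor and adhesion pathways showed members moving in both directions, against 10.1% called higher and 7.59% lower over all genes. In the list of the EGF receptor family and MET 5 of 14 genes were called higher and 1 lower, *AREG*. The list also holds ligands and *AXL*, which is among the 5 and also on the YAP target and mesenchymal lists. *AREG*, amphiregulin, fell from 13089, 14359 and 21646 in the *AGO1* to 5880.5, 6003 and 9018 in the *AGO1/2* knockout samples. *EGFR* itself went from 3394, 4564 and 4949 to 6256, 8244 and 8695 (log2 difference 0.85 ± 0.17) and *NRG1*, neuregulin, from 21.2, 10.8 and 11.8 to 39.5, 63.0 and 45.1. Among 26 TGF-beta and BMP genes 9 were called higher and 4 lower. The ligand *TGFB2* was at 21.2, 22.8 and 16.8 in the *AGO1* knockout samples and 195, 198 and 265 in the *AGO1/2* knockout samples (log2 difference 3.43 ± 0.21), whereas the ligand *BMP2* was at 15.7, 23.9 and 23.7 in the *AGO1* knockout samples and 0.9, 0.0 and 0.0 in the *AGO1/2* knockout samples, with a ratio of *AGO1* to *AGO1/2* counts of 62.1, with a 95% counting interval of 10.8 to 2490. The inhibitory SMADs rose, *SMAD6* by 1.89 ± 0.18 and *SMAD7* by 1.48 ± 0.35 on the log2 scale, and the receptor *ACVR2A* fell by 1.36 ± 0.12. Of 17 integrins 6 were called higher and 2 lower. *ITGB4*, the hemidesmosome subunit, was at 3569.9, 6006 and 11101 in the *AGO1* knockout samples and 22832, 41376 and 43439 in the *AGO1/2* knockout samples (log2 difference 2.38 ± 0.40), *ITGB8*, which can activate latent TGF-beta, went from 200, 175 and 136 to 1260.0, 1224 and 753, and *ITGA1*, a collagen receptor subunit, fell from 146, 142 and 157 to 34.8, 36.6 and 25.8. None of these integrins overlapped between the lines. In the WNT list, 7 of 14 genes were called higher and 4 lower. Of the feedback genes of beta-catenin, *AXIN2* rose from 451, 326 and 224 to 1093, 887 and 836, *NOTUM* by 1.57 ± 0.18 and *SP5* by 1.42 ± 0.26 on the log2 scale, and *CCND1*, cyclin D1, was at 11665, 13109 and 12824 in the *AGO1* knockout samples and 33501, 33389 and 33365 in the *AGO1/2* knockout samples (log2 difference 1.41 ± 0.10, adjusted p = 6.8e-05). The 4 that fell were *NKD2*, by 1.41 ± 0.20, and *DKK1*, by 1.31 ± 0.14, both antagonists of the pathway, *TNFRSF19*, by 1.68 ± 0.22 on the log2 scale, and *MYC* on 8q. Of 19 genes on the list of ERK feedback and target genes 3 were called higher, *IL17RD*, *CCND1* and *FOSL1* (0.94 ± 0.12 on the log2 scale). The 1 called lower was *ETV1*, which fell by 1.34 ± 0.20. *CCND1* is also on the WNT list and on that of G1 cyclins and inhibitors.

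In the lists of p53 targets, ribosome biogenesis and oxidative phosphorylation every call was lower, against 10.1% called higher and 7.59% lower over all genes. Of 28 p53 targets 8 fell and none rose (median -0.25), and 1 of the 8, *RRM2B*, a ribonucleotide reductase subunit that fell from 4916, 5252 and 5032 to 2309, 2337 and 2363, is on 8q. *PTP4A1*, a phosphatase, fell from 16846, 19808 and 20072 to 8192, 6656 and 6518, *GDF15*, a stress cytokine, from 2264, 3427 and 5594 to 1105, 1716 and 2265 with overlap between the lines, and *DDB2*, of nucleotide excision repair, from 1737, 1581 and 1458 to 1032, 752 and 806. The difference of *GDF15* was -0.75 without *AGO1* replicate 3, and DESeq2 did not call it (adjusted p = 0.069). *CDKN1A* and *MDM2*, the best known targets and named here after their values were seen, were not called (log2 differences 0.45 ± 0.18 and -0.37 ± 0.17). In the *AGO2* line all 8 of the fallen genes lay nearer to the *AGO1/2* than to the *AGO1* level. Without *AGO1/2* replicate 2 the list had 5 called lower, and without *AGO1* replicate 1 it had 9 lower and 2 higher. Of 34 ribosome biogenesis genes 12 fell and none rose (median -0.38). *BOP1* (8q), of the PeBoW complex, fell by 1.57 ± 0.15 on the log2 scale. Outside 8q the largest falls were *FBL*, fibrillarin, from 6830.1, 6522 and 5797 to 4129, 3201 and 3937, *POLR1C*, a subunit of RNA polymerases I and III, by 0.73 ± 0.14, and *RRP12* by 0.71 ± 0.12. Leaving out single libraries moved the count of called members between 4 and 23: it was 4 without *AGO1* replicate 2 or *AGO1/2* replicate 2, 5 without *AGO1* replicate 1 or *AGO1/2* replicate 3, and 23 without *AGO1* replicate 3, which had the lowest median level of the *AGO1* samples, 6.86, 6.70 and 6.41 on the log2(CPM + 1) scale against 6.36, 6.08 and 6.04 in the *AGO1/2* samples. Of 34 oxidative phosphorylation genes 10 fell and none rose (median -0.28), and 4 of the 10, *UQCRB*, *CYC1*, *NDUFB9* and *COX6C*, lie on 8q. Without the 8q members 6 of 30 fell. *UQCRC2*, a core subunit of complex III outside 8q, fell from 5372, 5057 and 4794 to 3078, 3196 and 3198. The count for this list was 5 without *AGO1* replicate 2 or *AGO1/2* replicate 2, 6 without *AGO1/2* replicate 3 and 16 without *AGO1* replicate 3. In the MYC and MAX network 2 of 12 genes were called, both lower, *MYC* (8q) and its partner *MAX*, which fell by 0.33 ± 0.094. The call of *MAX* was lost on leaving out any 1 library other than *AGO1* replicate 3.

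**Figure D4:**
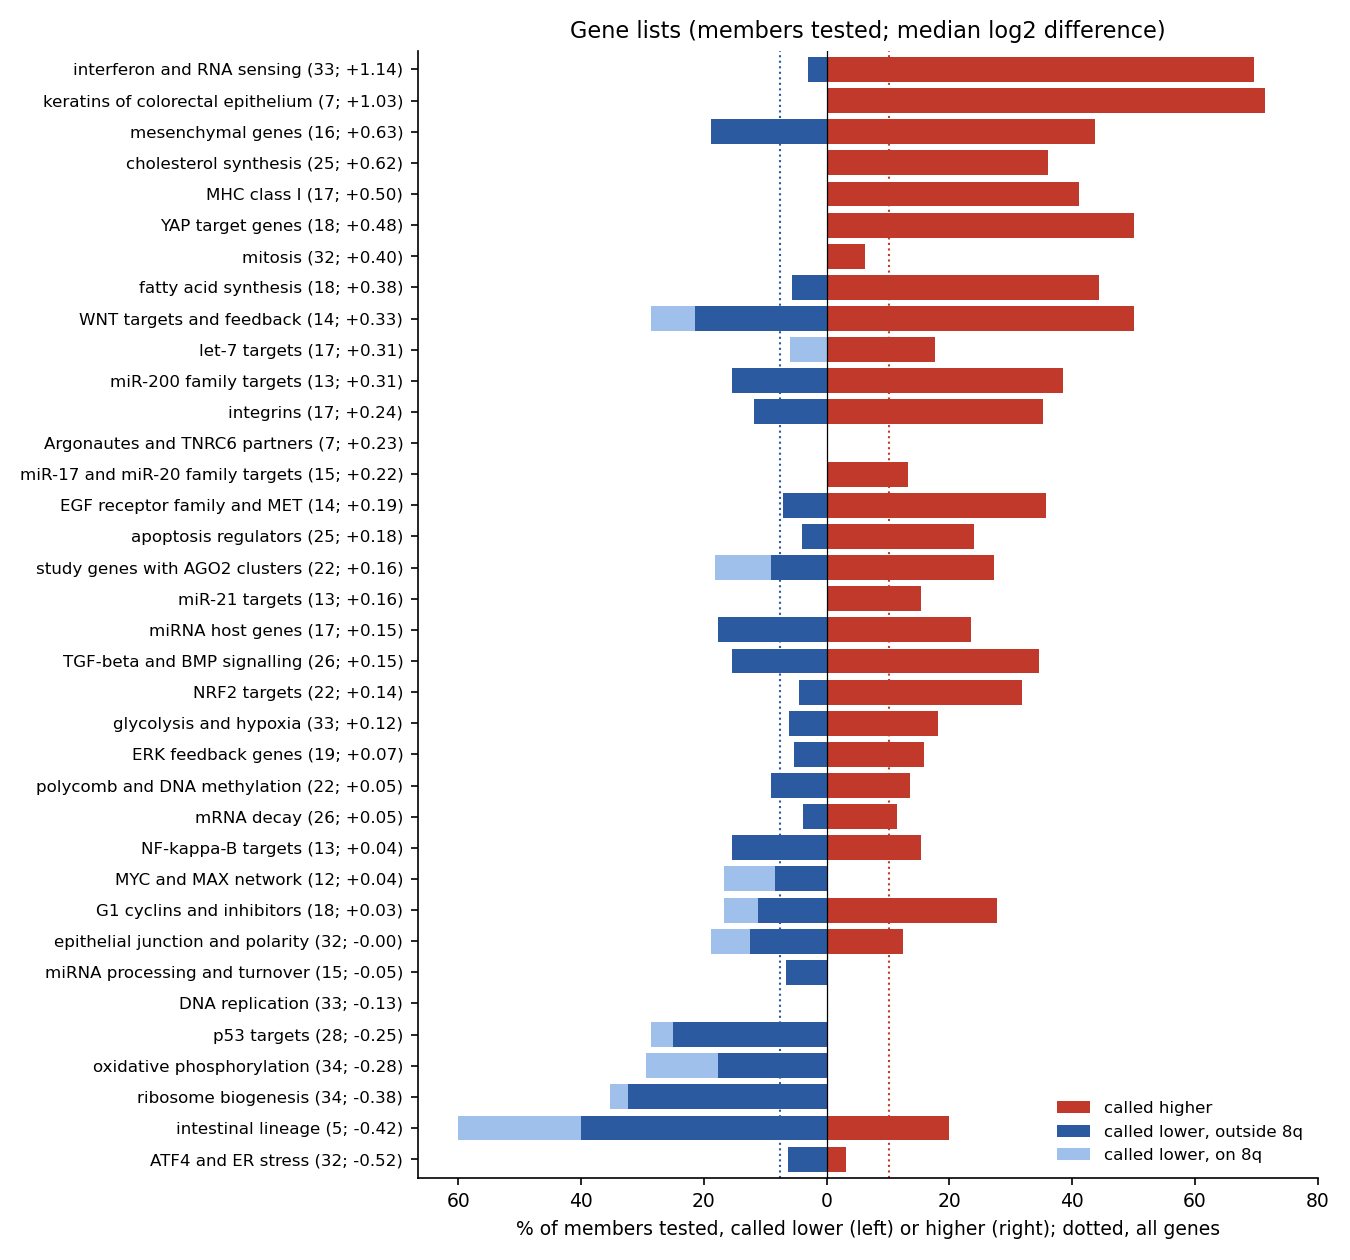
Share of the members of each gene list that was called higher (red, right) or lower (blue, left; light blue, members on 8q) in the *AGO1/2* line, for lists with at least 5 members tested and cell type markers apart, ordered by the median log2 difference, with dotted lines at the shares over all genes tested, 10.1% higher and 7.59% lower. Interferon genes and keratins reach furthest to the right, and the p53, ribosome biogenesis and oxidative phosphorylation lists have blue bars alone, as have the MYC network, with 2 called, and miRNA processing, with 1.

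Lists of miRNA targets held between 2 and 7 called members each. These are textbook targets and were not selected on seed matches in these data. The seeds of the miRNAs behind the lists (bases 2 to 8, in capitals) are shown to identify the families, from RefSeq for GRCh38.p14 and, where a miRNA has several copies in the genome, for 1 of them.
hsa-let-7a-5p (chr9:94175962-94175983, plus strand): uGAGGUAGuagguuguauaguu
hsa-miR-17-5p (chr13:91350618-91350640, plus strand): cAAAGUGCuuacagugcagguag
hsa-miR-200c-3p (chr12:6963742-6963764, plus strand): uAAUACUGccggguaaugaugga
hsa-miR-21-5p (chr17:59841273-59841294, plus strand): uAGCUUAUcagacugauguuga
Of 17 let-7 targets 3 were called higher and 1 lower, with a median log2 difference of 0.31. *HMGA2*, a chromatin protein with many let-7 sites, was at 16722, 16760.1 and 16915 in the *AGO1* knockout samples and 22388, 26355 and 25017 in the *AGO1/2* knockout samples (log2 difference 0.55 ± 0.11, adjusted p = 0.0087), with every *AGO1/2* sample above the *AGO1* samples. *THBS1*, thrombospondin, rose by 1.06 ± 0.22 and *IGF2BP1*, an mRNA-binding protein, by 1.17 ± 0.20 on the log2 scale, and *E2F5* (8q) fell by 0.83 ± 0.12. Of 15 targets of the miR-17 and miR-20 family 2 were called higher and none lower (median 0.22), *ZNFX1*, an RNA helicase, by 1.02 ± 0.14 and *BCL2L11*, the pro-apoptotic BIM, by 0.56 ± 0.13. In the miR-200 list 5 of 13 were called higher and 2 lower (median 0.31). *ZEB1*, the factor that represses epithelial genes, went from 396, 471 and 458 to 677, 828 and 824, *MSN*, moesin, from 4315, 4501 and 4283 to 8750.2, 8979 and 7454 and *RHOB* from 1813, 1924 and 1676 to 5031, 5978 and 4946. *JAG1*, a Notch ligand, fell from 3516, 3546 and 3972 to 1368, 2100.3 and 2316, so that the list held genes that rose and genes that fell. Of 13 miR-21 targets 2 were called higher, *RHOB* and *RECK* (0.68 ± 0.16), and none lower (median 0.16). The call of *RECK* was lost without *AGO1* replicate 1 or 2 and without *AGO1/2* replicate 2 or 3. That of *BCL2L11* was lost without replicate 1 or 2 of either line. Against the background of 10.1% higher and 7.59% lower, 12 calls higher and 3 lower were made over these 4 lists, with *RHOB* counted in 2 of them. The miRNA host genes had 4 of 17 called higher and 3 lower. *MIR17HG*, the host of the miR-17 cluster, fell from 539, 623 and 539 to 267, 367 and 337, whereas *CTDSPL*, a phosphatase gene hosting miR-26a, rose from 844, 753 and 777 to 2909, 3307 and 3172 and *MIR22HG* by 1.14 ± 0.33 on the log2 scale. The difference of *MIR22HG* was 0.62 without *AGO1/2* replicate 1, and its call was lost on leaving out any 1 library other than *AGO1/2* replicate 3. Mature miRNAs were not measured by these libraries. Of 26 mRNA decay genes 3 were called higher and 1 lower, near or below the shares over all genes. The decapping enzyme *DCP2* was at 3507, 3397 and 2487 in the *AGO1* knockout samples and 5663, 5668 and 5618 in the *AGO1/2* knockout samples. *TOB1*, which recruits deadenylases, rose by 0.65 ± 0.11 and *DCP1B* fell by 0.59 ± 0.11 on the log2 scale.

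The study singled out 22 genes that carry AGO2 eCLIP clusters, chosen by those clusters. In this comparison 6 were called higher, 4 lower and 12 not, against 10.1% called higher and 7.59% lower over all genes. *TMEM245*, which hosts the miR-32 gene, was at 2701, 2657 and 2529 in the *AGO1* knockout samples and 5855, 5852 and 6064 in the *AGO1/2* knockout samples (log2 difference 1.17 ± 0.095, adjusted p = 0.00011). *PHLPP2*, a phosphatase that acts on AKT, went from 1144, 1038 and 776 to 2187, 1893 and 1954 and *MSMO1*, a sterol methyl oxidase of cholesterol synthesis, from 1206, 831 and 1020.0 to 2247, 2501 and 1402. These 3 genes did not overlap between the lines. The other members that rose were *CYP2S1*, a cytochrome P450 (0.76 ± 0.11), *IL17RD*, an inhibitor of FGF signalling (0.76 ± 0.23, with overlap between the lines), and *TM2D2* (0.66 ± 0.10). The call of *IL17RD* was lost without *AGO1* replicate 1 or 2 and without *AGO1/2* replicate 2 or 3. That call was also lost with TMM factors taken without chromosome 8 and with at least 10 counts required in every sample. *GALNT3*, which starts O-linked glycosylation, fell from 118, 92.2 and 149 to 17.9, 29.5 and 24.7, *RGS16*, a regulator of G protein signalling, from 113, 149 and 153 to 41.4, 24.4 and 31.1, and the other 2 that fell were *MAL2* and *MYC* (both 8q). The 12 uncalled genes included some with wide spread. *S100A14*, a calcium-binding epithelial protein, was at 336, 898 and 1119 in the *AGO1* knockout samples and 167, 330.2 and 615 in the *AGO1/2* knockout samples and *DDIT4*, an inhibitor of mTORC1, at 2175, 4924 and 5309 in the *AGO1* knockout samples and 1366, 1006 and 3575 in the *AGO1/2* knockout samples, with the 2 lines overlapping in both. *GPRC5A*, an orphan receptor, was at 7859, 9505 and 16543 in the *AGO1* knockout samples and 13132, 19950.0 and 18733 in the *AGO1/2* knockout samples, and *PRSS8*, prostasin, had a log2 difference of 0.64 ± 0.21 (adjusted p = 0.066). *TSPAN13*, a tetraspanin, stood at -0.51 ± 0.16 (adjusted p = 0.059). The log2 differences of *ABCC2*, *CEMIP*, *EFNA1*, *ENTPD7*, *TMEM184A*, *TNFSF9* and *TUBB* lay between -0.16 and 0.36.

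Proliferation lists differed in how many members were called, against 10.1% called higher and 7.59% lower over all genes. The DNA replication and mitosis lists stayed below both shares. Of 33 DNA replication genes none was called by edgeR (median -0.13), 2 had an unadjusted p under 0.05, and DESeq2 called 1 higher and 0 lower. Of 32 mitosis genes 2 were called higher, *CDC25B* and *CDC25C*, phosphatases that activate CDK1 (log2 differences 1.10 ± 0.13 and 1.10 ± 0.27), and the median was 0.40. Among 18 G1 cyclins and inhibitors 5 were called higher and 3 lower. *CDKN1C* (p57) was at 111, 125 and 148 in the *AGO1* knockout samples and 236, 470.5 and 289 in the *AGO1/2* knockout samples and *CDKN1B* (p27) at 928, 954 and 947 in the *AGO1* knockout samples and 1759, 1426 and 1673 in the *AGO1/2* knockout samples, while *CDKN2B* (p15) fell by 1.0 ± 0.30 on the log2 scale. The difference of *CDKN2B* was -0.62 without *AGO1* replicate 3, and its call was lost with all 15 samples in the fit and on leaving out any 1 library other than *AGO1* replicate 1. Of 25 apoptosis regulators 6 were called higher and 1 lower. The anti-apoptotic *BCL2* fell from 194, 178 and 197 to 38.6, 25.4 and 19.3 and its relative *BCL2L1* rose from 2713, 3688 and 3737 to 6509, 8258 and 9658, so that these survival genes moved in opposite directions. *BIRC3*, *TNFSF10* (TRAIL) and *BIK* rose by 1.36 ± 0.26, 1.42 ± 0.33 and 0.59 ± 0.13 on the log2 scale. DESeq2 did not call *TNFSF10* (adjusted p = 0.12).

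Metabolic and stress genes moved in both directions, against 10.1% called higher and 7.59% lower over all genes. In the ATF4 and endoplasmic reticulum stress list both shares were below these, and in the polycomb and DNA methylation list they were near them. Of 33 glycolysis and hypoxia genes 6 were called higher and 2 lower. The glucose transporter *SLC2A3* was at 94.0, 74.8 and 113 in the *AGO1* knockout samples and 696, 678 and 643 in the *AGO1/2* knockout samples (log2 difference 2.83 ± 0.16) and *SLC2A1* at 3925, 3874 and 4358 in the *AGO1* knockout samples and 8376, 8965 and 8688 in the *AGO1/2* knockout samples. The lactate exporter *SLC16A3* rose by 0.91 ± 0.11, *ENO2*, an enolase, by 1.72 ± 0.16 and *P4HA2*, a collagen prolyl hydroxylase, by 0.85 ± 0.13 on the log2 scale. Of 22 NRF2 targets, which serve redox defence, 7 were called higher and 1 lower, among them *OSGIN1* (log2 difference 1.37 ± 0.22), *GCLM*, of glutathione synthesis (0.74 ± 0.16), *NQO1* (0.68 ± 0.11) and *TKT* (0.53 ± 0.11). The ATF4 and endoplasmic reticulum stress list had the lowest median of the 41 lists, -0.52, with 2 of 32 members called lower, *ATF3* (fall of 0.82 ± 0.19) and *SHMT2* (0.56 ± 0.15), and 1 higher, the chaperone *HSP90B1* (0.66 ± 0.13). In the NF-kappa-B list 2 of 13 were called higher and 2 lower: *ICAM1*, an adhesion molecule, fell from 347, 400.2 and 479 to 29.1, 23.4 and 18.3, while *NFKBIA*, the inhibitor, rose by 0.55 ± 0.16 and *NFKB1* fell by 0.40 ± 0.10. The calls of *NFKBIA* and *NFKB1* were lost on leaving out any 1 library other than *AGO1* replicate 3. Antigen presentation by MHC class I had 7 of 17 members called higher and none lower (median 0.50). *ERAP1*, which trims peptides, went from 288, 374 and 367 to 736, 836 and 733, *TAPBP*, tapasin, from 1385, 1399 and 1730.3 to 2997, 3378 and 2846, and *ERAP2*, *CALR* and *PSMB9* rose by 0.95 ± 0.20, 0.78 ± 0.18 and 0.78 ± 0.23. The count for this list fell to 2 without *AGO1* replicate 2, 3 without *AGO1/2* replicate 2 and 4 without *AGO1/2* replicate 1. *PSMB9* was not called on leaving out any 1 library other than *AGO1* replicate 3. The HLA genes on the list share reads among themselves and their single values are uncertain. Of 22 polycomb and DNA methylation genes 3 were called higher, *TET1* (0.79 ± 0.11), *CBX7* (0.58 ± 0.15) and *BMI1* (0.55 ± 0.11), and 2 lower, *PHC1* (fall of 0.77 ± 0.14) and *JARID2* (0.61 ± 0.17). The call of *JARID2* was lost on leaving out any 1 library other than *AGO1* replicate 1. That of *CBX7* was lost without *AGO1* replicate 1 or 2 and without *AGO1/2* replicate 2 or 3.

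**Figure D5:**
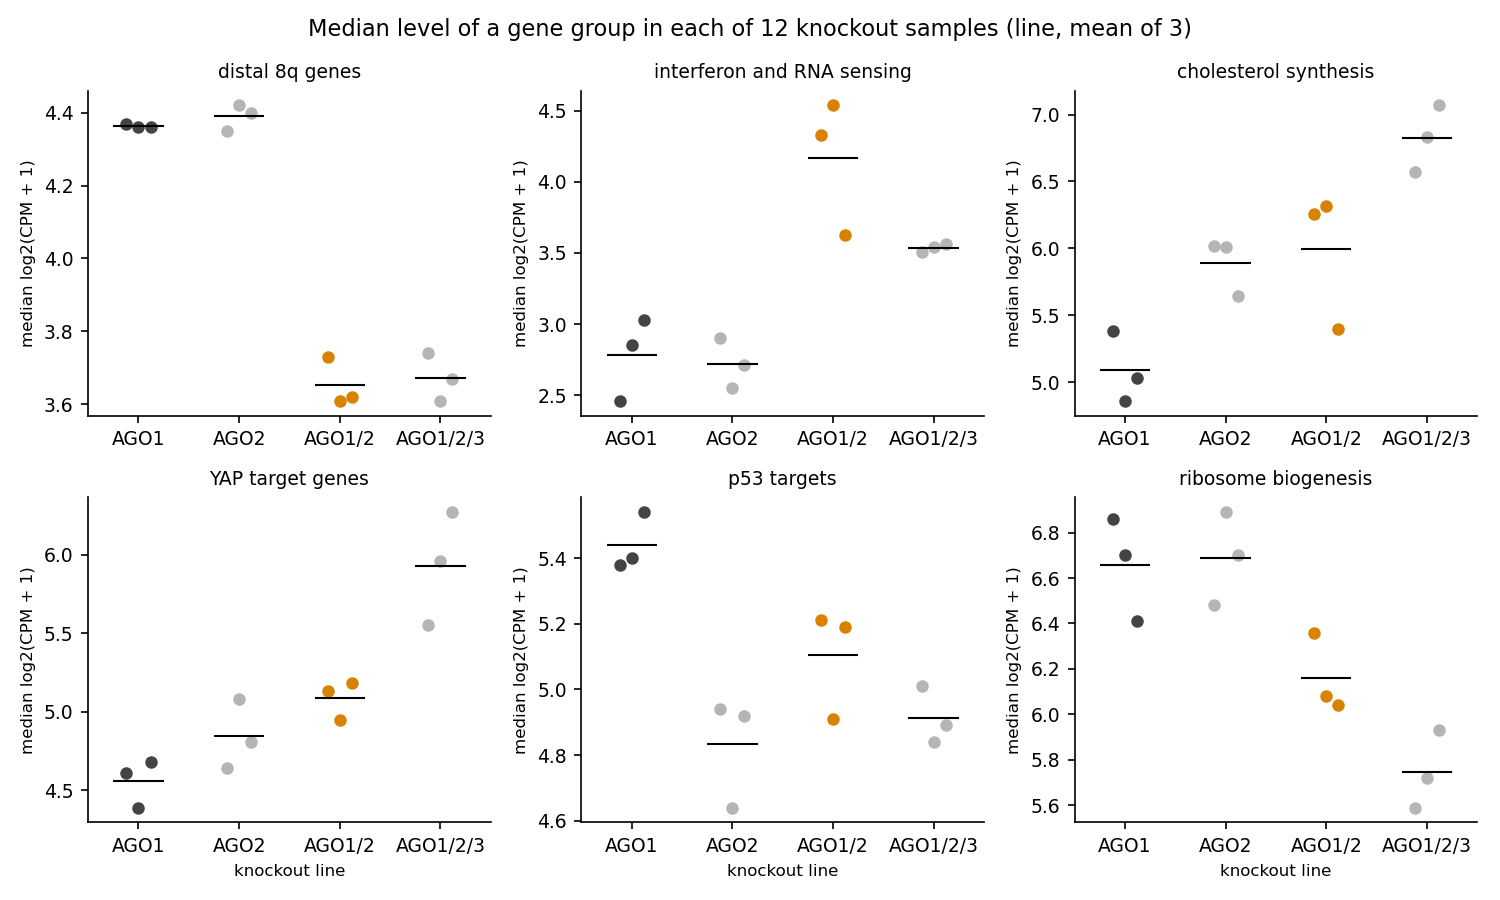
Median log2(CPM + 1) over the members of 6 gene groups in each of the 12 knockout samples, with the mean of 3 replicates as a line. Distal 8q genes are low in the *AGO1/2* and *AGO1/2/3* lines alone (3.61 to 3.74 against 4.35 to 4.42). By this median, interferon genes are highest in the *AGO1/2* line, with replicate 3 close to the *AGO1/2/3* samples, and p53 targets are highest in the *AGO1* line.

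Setting these groups beside the other lines gave different orders. The YAP target genes had median levels of 4.61, 4.39 and 4.68 on the log2(CPM + 1) scale in the *AGO1* samples, 5.13, 4.95 and 5.18 in the *AGO1/2* samples and 5.55, 5.96 and 6.27 in the *AGO1/2/3* samples, which did not overlap with one another. The *AGO2* samples, at 4.64, 5.08 and 4.81, overlapped the *AGO1* and *AGO1/2* samples. The p53 targets were at 5.38, 5.40 and 5.54 in the *AGO1* samples, above all *AGO1/2* samples (5.21, 4.91 and 5.19), *AGO2* samples (4.94, 4.64 and 4.92) and *AGO1/2/3* samples (5.01, 4.84 and 4.89). The ribosome biogenesis genes were at 6.48, 6.89 and 6.70 in the *AGO2* samples, which overlapped the *AGO1* samples, and lowest in the *AGO1/2/3* samples at 5.59, 5.72 and 5.93. These levels were not tested, and each line is again 1 edited line.

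Among non-coding genes, *LINP1*, a long non-coding RNA described in DNA end joining, was at 1.8, 1.1 and 3.9 in the *AGO1* knockout samples and 71.5, 62.0 and 53.7 in the *AGO1/2* knockout samples, *LINC02935* went from 4.6, 5.4 and 17.8 to 95.0, 179.8 and 138 and ENSG00000253584 from 7.4, 7.6 and 3.9 to 71.5, 109 and 102. The largest falls were ENSG00000256915, from 77.4, 69.4 and 76.9 to 0.0, 1.0 and 2.1 (ratio of *AGO1* to *AGO1/2* counts 74.3, with a 95% counting interval of 25.1 to 363), *MSRB3-AS1*, from 813, 1009.7 and 1147 to 15.0, 24.4 and 29.0, and *LNCAROD*, from 162, 174 and 182 to 13.2, 2.0 and 11.8. No sample of one line reached the values of the other in any of these 6 genes. *MSRB3-AS1* is antisense to a coding gene, and its value assumes that strand was used in counting.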

How the data were processed

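HCT116 total RNA was depleted of ribosomal RNA and sequenced as stranded paired-end libraries. Per the submitters' processing notes the authors used STAR 2.5.3a, Salmon 0.11.0, DESeq2 and hg38, and they deposited an estimated count per gene and sample, as the files hold it, from which all values come. Counts were rounded to whole numbers, filtered with filterByExpr, scaled by TMM and tested with edgeR 4.0.16 (quasi-likelihood test, R 4.3.3) over the 6 samples, with Benjamini-Hochberg adjustment over 21120 genes and a threshold of 0.05. DESeq2 1.42.0 was an alternative. Gene names, types and positions came from GENCODE release 44, which held 57167 of the 57875 genes listed. Of 41 gene lists (780 genes), 714 genes were tested and 1 symbol found no match. Named were the AGO and TNRC6 genes, the genes singled out by the study, the 12 largest called rises and 12 falls of protein-coding genes averaging 1 CPM or more with no overlap between lines, 8 falls and 3 rises on 8q, 3 non-coding genes each way, and up to 5 called genes of each list. Genes beside *AGO2*, at the 8q boundary, in promoter examples and other list members outside these limits were picked with their values in view. The comparison, its members and the lists were chosen with earlier results of these data known. Tested on simulated data of this comparison, edgeR called 83 of 100 genes changed 2-fold and 100 of 100 changed 4-fold, with 15 false calls among 20696 genes. DESeq2 called 85 and 99, with 37 false calls among 21120 genes. The 200 changed genes were drawn from the more abundant genes only, so that these shares do not cover low genes. They were also far fewer than the genes called in the real data. An exact permutation test of 3 against 3 samples cannot go below p = 0.10. Standard errors (SE) are those of the fitted log2 difference. Lists were described by counts and medians and were not tested as sets. No paired design was used. Some genes of the lists are not reported here.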

Additional observations from a re-analysis of the deposited data

How the results depend on the processing

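The direction of the 8q median and of each called gene named was kept under all alternatives run. The 8q median was -0.55 with TMM factors taken without chromosome 8, -0.52 with all 15 samples in the fit, -0.52 with total counts only and -0.61 for the genes from 73 Mb, and leaving out 1 library gave -0.55 to -0.52. A 2-fold threshold beside the adjusted p left 767 genes higher, 564 lower and 51 lower on 8q. Leaving out 1 library gave 1108 to 2245 genes higher, 807 to 1721 lower and 118 to 184 lower on 8q, with the fewest without *AGO1* replicate 2. Fewer samples were then compared, and the cause of the difference between libraries was not tested. The log2 difference of *AGO2* ran from -0.11 to -0.03 (edgeR or DESeq2, adjusted p 0.622 to 0.925). Of 192 called genes named, 114 were called in every alternative and 78 were lost in at least 1, none with a reversed sign. Of 24 genes named but not called, 10 passed in at least 1 alternative. Among these 24, 6 changed sign: *CEMIP* was 0.01 with all 15 samples and 0.02 with total counts, and leaving out 1 library gave -0.34 to 0.27 for *CEMIP*, -0.09 to 0.22 for *TARBP2*, -0.04 to 0.08 for *SNRNP200*, -0.11 to 0.48 for *TUBB*, -0.05 to 0.39 for *ABCC2* and -0.02 to 0.12 for *AGO1*.

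Replicate numbers were not taken to pair the samples. Deviations of same-numbered samples correlated at 0.348, -0.074 and 0.173, and those of different-numbered samples at -0.338 to 0.212. With 3 samples in each line these values cannot settle whether the numbers pair the samples. With the number as a block (replicate block) 2699 genes were higher and 2132 lower, against 2142 and 1602 without it. In that fit 17 of the cholesterol and 20 of the ribosome biogenesis genes were called. With 3 replicates, small differences of low genes were not detectable.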

Other observations

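Several of the genes with the largest differences lay near each other. The set was the 80 protein-coding genes called at 8-fold or more, averaging 1 CPM or more and without overlap between the lines. Of these, 34 rose and 46 fell. Consecutive genes of the set lay within 1 Mb of each other in 8 pairs, and other genes can lie between them. In 7 of the 8 pairs both moved in the same direction, and *ZNF704* and *PAG1* on 8q are 1 of these. The share of such pairs among all genes was not computed. The pattern was noticed after the values were seen and was not tested. *S100A5* and *S100A4*, calcium-binding proteins of 1 gene cluster 1.8 kb apart, rose by 3.05 and 3.45 on the log2 scale. *FAT2* and *SPARC*, 69.8 kb apart, rose by 4.50 and 3.62. *GRB14* and *COBLL1*, 32.1 kb apart, fell by 5.24 and 4.68, and *SPOCK3*, a matrix proteoglycan 857.7 kb from *ANXA10*, fell by 3.61. *SAMD3* and *TMEM200A* lie 0.6 kb apart. The pair that moved apart was *PRPS1*, of nucleotide synthesis, which rose by 3.45, and *COL4A6*, a basement membrane collagen 503.6 kb away, which fell by 3.93.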
